A study of Mus musculus with 32 samples.

Results

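The cytosolic heat shock chaperones described here are 10 genes listed by name as a set: Hspa1b, Hspa8, Hsph1, Dnajb1, Bag3, Hsp90aa1, Stip1, Hspb1, Hspd1 and Hsf1. The list was drawn up by name with earlier results of these data known, and each gene was represented by its probe set with the highest mean over all arrays. Of the 10 genes, 9 were measured, among 22180 genes in all, and Hsf1 is not analysed here. The name of the set fits most of its members by textbook knowledge, but Hspd1 encodes a chaperonin of the mitochondrial matrix and Hsf1 a transcription factor.

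The study asked how a single load of dietary fat changes energy metabolism and insulin action. All mice were wild-type male C57BL/6NTac animals of 14 weeks, each liver came from a different mouse, and each was hybridised to 1 Affymetrix Mouse Gene 2.1 ST array (32 arrays). The 9 palm oil clamped mice were fasted for 10 h, received palm oil at 2 g/kg by gavage and entered a hyperinsulinemic-euglycemic clamp 6 h later, an infusion of insulin (15 pmol/kg/min) with as much glucose as keeps blood glucose at a target. The 7 control clamped mice were treated in the same way with water in place of palm oil. The 9 palm oil basal mice had the same fast and the same oil but no clamp, and liver was taken 6 h after the gavage. The 7 control basal mice received water and no clamp.

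Clamped mice differed from basal mice in more than insulin. A jugular vein catheter had been placed under ketamine and xylazine 6 to 7 days earlier, a glucose tracer ran for 110 min before the insulin, the liver was taken later after the gavage, and death was by ketamine and xylazine instead of isoflurane. Surgery, tracer, time, anaesthetic and insulin therefore cannot be told apart in any clamped against basal comparison.

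Chaperones of the HSP70 and HSP90 families bind unfolded stretches of other proteins and release them in cycles driven by ATP, with co-chaperones that load clients, speed up the ATP cycle or exchange the nucleotide. When unfolded proteins accumulate, the transcription factor HSF1 is released from chaperones, forms trimers and binds heat shock elements, which are inverted repeats of a short GAA unit in the promoters of inducible chaperone genes. In liver this response is known from heat, ischemia and toxins, while constitutive members such as Hspa8 serve everyday folding.

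The values were log2 expression values on an RMA scale, so that a difference of 1 is a doubling of signal, and the number of arrays sets the precision. The liver label was borne out by 5 hepatocyte markers, whose mean level lay between 10.39 and 10.84 in every array. Pancreatic acinar transcripts (10 measured markers) averaged over 6 log2 units in 12 arrays, of which 2 were palm oil clamped, 1 control clamped, 5 palm oil basal and 4 control basal. Basal animals numbered 44 or higher (3 palm oil, 4 control) gave arrays with a narrower spread: the interquartile range was at most 2.54 on these 7 arrays, at least 2.72 on the 9 remaining basal arrays and at least 2.64 on the 16 clamped ones. In whole liver, more cells of a type and more RNA per cell cannot be told apart.

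Promoter sequence was examined because the members shared a direction in the clamped livers. RefSeq windows of 250 bases before to 50 bases after the annotated start (GRCm38.p6) were found for 7 members, that is for all measured members but Hsp90aa1 and Hspa8. A pair of GAA units in inverted orientation (GAANNTTC or TTCNNGAA, either of which reads as itself on the opposite strand) occurred in a window of 5 of these 7 members, against 4587 of the 27025 genes with a window (15.1% of all windows). A run of 3 units (GAANNTTCNNGAA or TTCNNGAANNTTC, each the opposite strand of the other, and each containing both 2-unit forms) occurred in 2 of the 7, against 0.662% of the genes (0.603% of all windows). The 2 members with 3 units were Hsph1 and Hspd1, the members with 2 units but not 3 were Hspa1b, Hspb1 and Bag3, and the windows of Stip1 and Dnajb1 held neither set of letters. A match is a description of letters and not a measured binding site. The members were listed by name as heat shock genes, so a share above that of all genes is no test. A 30-base stretch for each of these 5 genes, for Hsph1 the one with 3 units, is given below from 5′ to 3′ on the strand of the gene, with matched letters in capitals. The stretches lie at chr17:34959324-34959353 on the minus strand (Hspa1b), chr5:149636287-149636316 on the minus strand (Hsph1), chr1:55088053-55088082 on the minus strand (Hspd1), chr5:135887801-135887830 on the plus strand (Hspb1) and chr7:128523603-128523632 on the plus strand (Bag3).
Hspa1b: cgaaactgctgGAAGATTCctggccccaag
Hsph1: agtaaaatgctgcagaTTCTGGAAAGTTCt
Hspd1: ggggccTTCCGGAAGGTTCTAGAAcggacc
Hspb1: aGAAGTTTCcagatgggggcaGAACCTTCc
Bag3: ccaagttctctggatgggaccaGAAGTTTC

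Counted from 0 at the annotated start (of the window that holds the printed stretch, where a gene had several), the match of Hspa1b spanned positions -104 to -97, the 2 matches of Hspb1 lay between -117 and -90, and the 3 overlapping matches of Hspd1 ran without a gap from -144 to -127. The printed matches of Hsph1 (36 to 48) and Bag3 (42 to 49) lay after the start, and Hsph1 had a further 2-unit match before it, at -33 to -26. The Hspd1 stretch is shared with Hspe1, the cofactor of the same chaperonin, which is transcribed from the opposite strand of the same DNA. The 250 bases before the start of Hspa1b are shown because this gene had the largest difference among the members. They lie at chr17:34959239-34959488 on the minus strand and differ from the matching stretch of its neighbouring copy Hspa1a at 3 bases, and capitals again mark the matched letters.
Hspa1b promoter: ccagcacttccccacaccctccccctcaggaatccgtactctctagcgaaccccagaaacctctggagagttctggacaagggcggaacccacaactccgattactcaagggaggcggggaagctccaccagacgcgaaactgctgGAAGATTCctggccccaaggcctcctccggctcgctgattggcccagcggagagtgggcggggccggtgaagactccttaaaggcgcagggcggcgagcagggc

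Most measured members were higher in clamped than in basal livers, after either gavage, and Hspd1 passed the test in neither arm. In palm oil mice, 6 of 9 members were higher in clamped livers and 0 lower at an adjusted p under 0.05 in limma, where 3.76% of all genes were called higher and 3.8% lower. In control mice, 8 of 9 were higher and 0 lower, where 4.66% of all genes were called higher and 4.09% lower. The 6 members called in both arms were Hspa1b, Hspa8, Hsph1, Bag3, Hsp90aa1 and Stip1, against 2.66% of all genes called higher in both. The median difference of the 9 members was 0.62 log2 units in palm oil mice and 1.04 in control mice, beside -0.02 over all genes in each arm. The 2 arms share no array.

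Some markers of other cell types moved with the clamp as well. Of 10 neutrophil markers, 5 were higher in clamped livers in each arm and 0 lower, and their summed log2 level was 27.3 to 33.4 in palm oil clamped and 25.5 to 33 in control clamped livers, against 17.3 to 20.8 in palm oil basal and 16.9 to 23.3 in control basal livers. Of 7 Kupffer cell markers, 2 were higher in palm oil mice and 3 in control mice, with summed levels of 38.1 to 42.2 in palm oil clamped and 36.8 to 42.8 in control clamped livers, against 34.6 to 39.2 in palm oil basal and 35.1 to 37.5 in control basal livers. Endothelial markers went both ways, with Lyve1 higher and Kdr lower in each arm. Among 4 cholangiocyte markers Sox9 alone was called, higher in each arm, while Krt19, Krt7 and Epcam were not called. Among 7 stellate cell markers, 1 was higher and 1 lower in palm oil mice, and 0 were called in control mice. Among 5 lymphocyte markers, 1 was lower in palm oil mice, and 0 were called in control mice. Of 10 acinar markers 0 were called in limma, although 9 had an unadjusted p under 0.05 in each arm, and their summed level was 17.9 to 76.8 in palm oil clamped and 16 to 88.6 in control clamped livers, against 18.6 to 95.9 in palm oil basal and 24.5 to 89.5 in control basal livers. RMA values have no zero that would mark an absent transcript. The part of these cells in the chaperone values was not tested. Without the 7 basal arrays of animals 44 or higher, 3 members were called in palm oil mice and 5 in control mice, where 2.39% and 1.79% of all genes were called higher. Without the 12 arrays with acinar transcripts over 6, 2 members were called in palm oil mice and 5 in control mice, where 1.31% and 2.44% of all genes were called higher. The 2 were Hspa1b and Bag3, and the 5 were Hspa1b, Hsph1, Hsp90aa1, Hspa8 and Bag3.

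**Figure D1:**
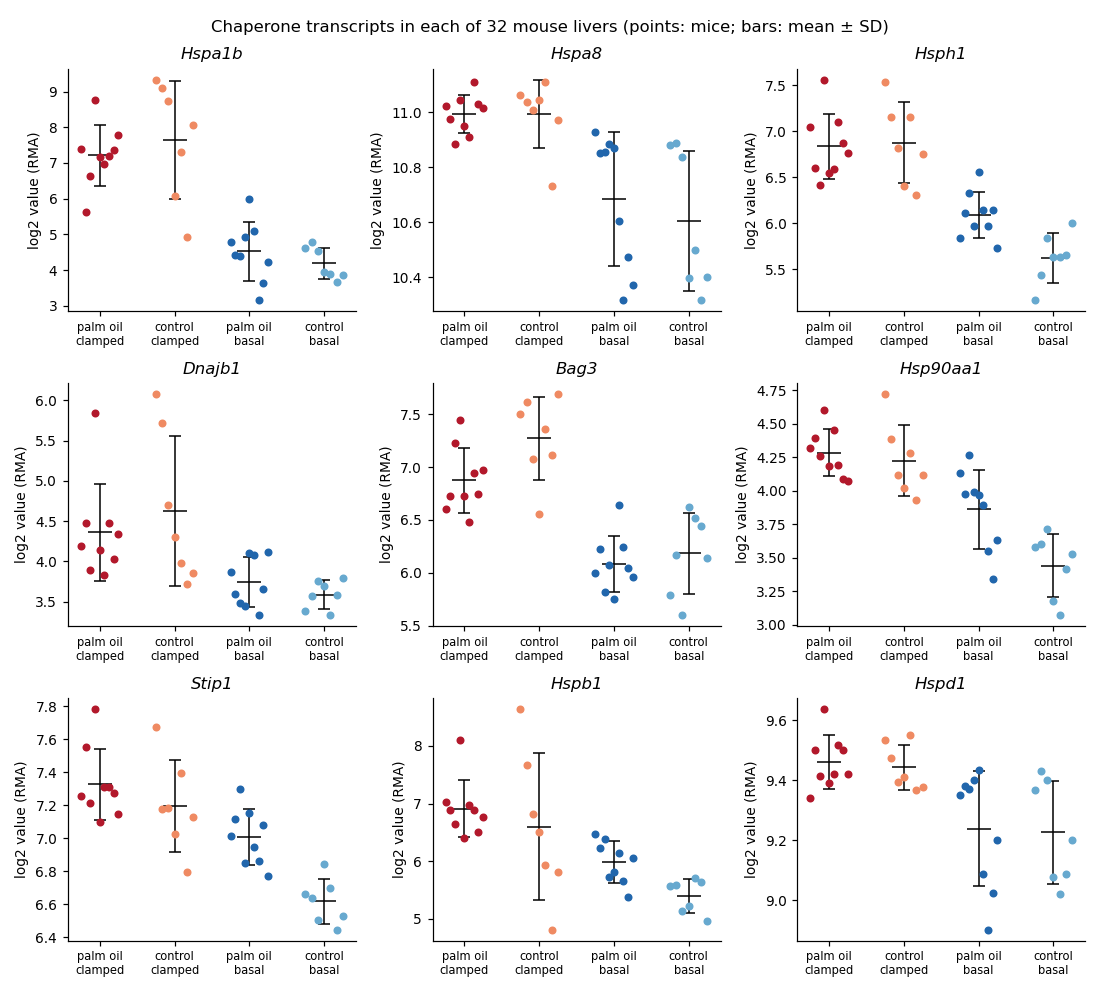
Log2 values (vertical axis, RMA scale) of the 9 measured members in each of 32 livers, with 1 point per mouse and black bars for the group mean and SD. Clamped livers stand above basal livers for every member on average, and the spread of Hspa1b, Dnajb1 and Hspb1 is widest among the control clamped livers.

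Among the HSP70 chaperones, Hspa1b, the stress-inducible form that is nearly silent in unstressed tissue, had the largest difference of the set. Its log2 value had a lowest, median and highest of 5.63, 7.18 and 8.76 in palm oil clamped livers and of 4.92, 8.07 and 9.33 in control clamped livers. In palm oil basal livers these values were 3.15, 4.43 and 6.00, and in control basal livers 3.68, 3.95 and 4.78. Every control clamped liver lay above every control basal liver, while in palm oil mice 8 of 9 clamped livers lay above the highest basal one. Clamped exceeded basal livers by 2.69 ± 0.44 log2 units in palm oil mice, a 6.45-fold difference (limma adjusted p 5.44e-05). In control mice the difference was 3.46 ± 0.50, an 11-fold difference (limma adjusted p 9.64e-06). Values after ± beside a difference are standard errors of the limma fit.

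Every clamped liver also lay above every basal liver in control mice for Hsph1 and Hsp90aa1, so that 3 of 9 members showed no overlap there, against 1.39% of all genes. In palm oil mice 0 of 9 members showed no overlap, against 0.866% of all genes.

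The neighbouring copy Hspa1a encodes a nearly identical protein, and probes may not keep the copies apart. Its values were 1.24, 2.47 and 4.59 (lowest, median, highest) in palm oil clamped livers and 1.89, 2.84 and 5.84 in control clamped livers, against 0.99, 1.84 and 2.12 in palm oil basal and 0.95, 1.69 and 2.52 in control basal livers. The groups overlapped in both arms. The difference was 0.81 ± 0.40 in palm oil mice (limma adjusted p 0.275) and 1.81 ± 0.46 in control mice (limma adjusted p 0.00825). A probe set assigned to both copies differed by 0.84 in palm oil mice and 1.99 in control mice, also less than the Hspa1b probe set. Both were dim, near the median of 1.9 over all genes, where RMA understates folds. Hspa1a averaged 1.76 in palm oil basal and 1.66 in control basal livers, and the shared probe set 2.16 over all arrays.

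Hspa8 encodes the constitutive HSP70 of the cytosol. Its lowest, median and highest values were 10.88, 11.01 and 11.11 in palm oil clamped and 10.73, 11.04 and 11.11 in control clamped livers, against 10.31, 10.85 and 10.93 in palm oil basal and 10.32, 10.50 and 10.89 in control basal livers. In control mice 6 of 7 clamped livers were above the highest basal liver, and in palm oil mice 7 of 9. The difference was 0.31 ± 0.10 in palm oil mice (1.24-fold, limma adjusted p 0.0379) and 0.39 ± 0.11 in control mice (1.31-fold, limma adjusted p 0.0165). Without the basal arrays of animals 44 or higher it was 0.16 in palm oil mice (adjusted p 0.222) and 0.13 in control mice (adjusted p 0.555) in limma, and leaving out a single array ended the palm oil call in 9 of 32 cases, with adjusted p-values between 0.0249 and 0.0903. The other 3 probe sets of Hspa8 alone differed by 0.31 to 0.48 in palm oil mice and 0.39 to 0.54 in control mice. A further probe set assigned to Hspa8 and to Snord14e, a small nucleolar RNA, differed by 1.49 and 1.63.

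Hsph1 encodes HSP110, a nucleotide exchange factor of HSP70 that also holds unfolded clients. It measured 6.42, 6.76 and 7.56 (lowest, median, highest) in palm oil clamped livers and 6.30, 6.82 and 7.53 in control clamped livers, against 5.73, 6.11 and 6.55 in palm oil basal and 5.16, 5.63 and 6.00 in control basal livers. The groups were separate in control mice, and in palm oil mice 7 of 9 clamped livers stood above the highest basal liver. Hsph1 was 1.68-fold higher in palm oil mice (0.75 ± 0.15, limma adjusted p 0.000992) and 2.38-fold higher in control mice (1.25 ± 0.17, limma adjusted p 4.71e-06), the smallest adjusted p of the set. Without the arrays with acinar transcripts over 6, the palm oil difference was 0.74 (limma adjusted p 0.0644).

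Bag3 encodes a co-chaperone that releases nucleotide from HSP70 and steers clients to autophagy. It measured 6.48, 6.74 and 7.45 in palm oil clamped livers and 6.56, 7.36 and 7.69 in control clamped livers, against 5.75, 6.04 and 6.64 in palm oil basal and 5.60, 6.17 and 6.62 in control basal livers (lowest, median, highest). A single control clamped liver fell among the control basal values, and 7 of 9 palm oil clamped livers were above all palm oil basal livers. The difference was 0.79 ± 0.15 in palm oil mice (1.73-fold, limma adjusted p 0.000479) and 1.09 ± 0.17 in control mice (2.13-fold, limma adjusted p 3.96e-05).

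Dnajb1 encodes the J-domain protein HSP40, which delivers clients to HSP70 and stimulates its ATPase. It measured 3.84, 4.19 and 5.85 in palm oil clamped and 3.72, 4.30 and 6.08 in control clamped livers, against 3.34, 3.66 and 4.12 in palm oil basal and 3.33, 3.58 and 3.80 in control basal livers. The clamped livers overlapped the basal ones, with 6 of 9 palm oil clamped and 6 of 7 control clamped livers above the highest basal liver of their arm. The difference was 1.04 ± 0.28 in control mice (2.05-fold, limma adjusted p 0.0154), and it was 0.62 ± 0.25 in palm oil mice, where the adjusted p of 0.146 in limma did not pass. The control call was lost without control clamped replicate 2 (0.85, limma adjusted p 0.0506). It was also lost without the basal arrays of animals 44 or higher (1.05, limma adjusted p 0.156) and without the arrays with acinar transcripts over 6 (1.02, limma adjusted p 0.232).

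**Figure D2:**
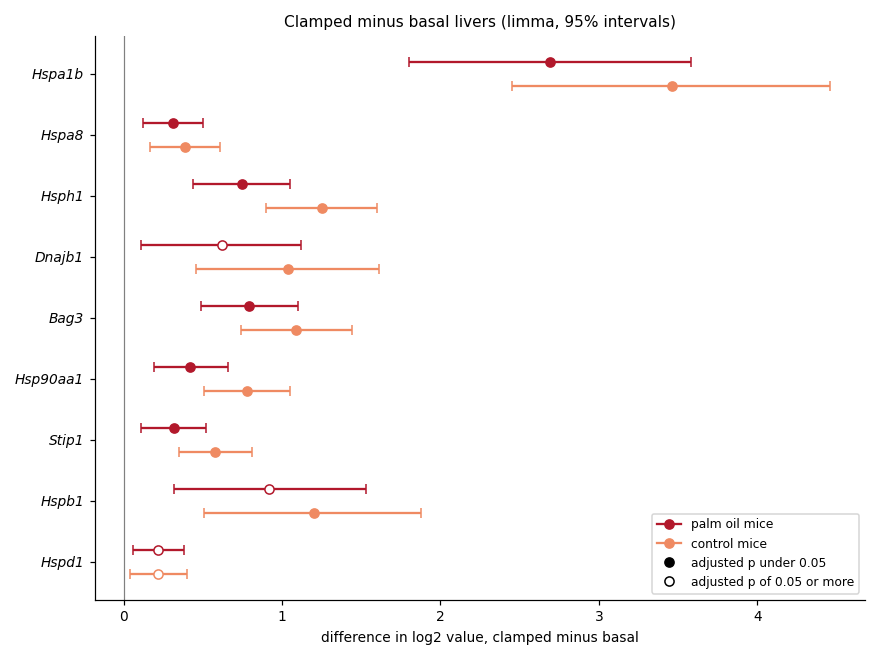
Clamped minus basal difference in log2 value (horizontal axis) for the 9 members, with 95% intervals from limma, for palm oil mice above control mice. Filled points have an adjusted p under 0.05, and the differences run between 0.22 for Hspd1 in both arms and 3.46 for Hspa1b in control mice.

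The HSP90 arm held 2 members. Hsp90aa1 encodes the inducible cytosolic HSP90, which matures kinases and steroid receptors. Its values were 4.07, 4.25 and 4.60 in palm oil clamped livers and 3.93, 4.12 and 4.72 in control clamped livers, against 3.34, 3.96 and 4.27 in palm oil basal and 3.07, 3.53 and 3.71 in control basal livers. Clamped and basal livers did not overlap in control mice, and in palm oil mice 4 of 9 clamped livers exceeded the highest basal liver. The clamped livers were higher by 0.42 ± 0.12 in palm oil mice (1.34-fold, limma adjusted p 0.0187) and by 0.78 ± 0.13 in control mice (1.72-fold, limma adjusted p 0.000106). Without the basal arrays of animals 44 or higher, the palm oil difference was 0.25 (limma adjusted p 0.208).

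Stip1 encodes HOP, the adaptor that passes clients between HSP70 and HSP90. It measured 7.10, 7.27 and 7.78 in palm oil clamped and 6.80, 7.18 and 7.68 in control clamped livers, against 6.77, 7.01 and 7.30 in palm oil basal and 6.45, 6.64 and 6.84 in control basal livers. In control mice 6 of 7 clamped livers were above all basal livers, and in palm oil mice 4 of 9. The difference was 0.58 ± 0.11 in control mice (1.49-fold, limma adjusted p 0.000729). In palm oil mice it was 0.32 ± 0.10 (1.25-fold, limma adjusted p 0.0471), and leaving out a single array ended this call in 20 of 32 cases, with adjusted p-values between 0.0286 and 0.114.

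Hspb1 encodes HSP27, a small heat shock protein that binds unfolding proteins without ATP and protects actin filaments. It measured 6.40, 6.89 and 8.10 in palm oil clamped livers and 4.82, 6.51 and 8.64 in control clamped livers, against 5.39, 6.07 and 6.47 in palm oil basal and 4.96, 5.56 and 5.70 in control basal livers. The control clamped livers spread on both sides of the basal ones, with 6 of 7 above the highest and 1 below the lowest. The difference was 1.20 ± 0.34 in control mice (2.3-fold, limma adjusted p 0.0192), and without control clamped replicate 1 or 2 it was 0.86 (adjusted p 0.0541) or 1.02 (adjusted p 0.0585) in limma. That call was also lost without the basal arrays of animals 44 or higher (1.17, limma adjusted p 0.186) and without the arrays with acinar transcripts over 6 (1.21, limma adjusted p 0.232). In palm oil mice it was 0.92 ± 0.30, with a limma adjusted p of 0.0505, and it was called in 6 of the 32 fits that left out a single array. In that arm 8 of 9 clamped livers lay above the highest basal liver. With the compared groups alone, the limma adjusted p was 0.00215 in palm oil mice and 0.107 in control mice. Exact rank sum tests gave adjusted p-values of 0.00408 and 0.196. The palm oil difference stayed uncalled in 10 of 16 alternatives. A dimmer second probe set of Hspb1 differed by 0.24 in palm oil mice and 0.70 in control mice.

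Hspd1, the mitochondrial chaperonin HSP60, had the smallest difference. It measured 9.34, 9.42 and 9.64 in palm oil clamped and 9.37, 9.41 and 9.55 in control clamped livers, against 8.90, 9.35 and 9.44 in palm oil basal and 9.02, 9.20 and 9.43 in control basal livers, so that the groups overlapped in both arms. The difference was 0.22 ± 0.08 in palm oil mice (limma adjusted p 0.085) and 0.22 ± 0.09 in control mice (limma adjusted p 0.141). Its promoter window held the longest run of matched letters printed above.

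Palm oil without the clamp left no member past the threshold. In palm oil basal against control basal livers, 0 of 9 members were called in limma, as were 0% of all genes (smallest adjusted p 0.96 among members and 0.3 among all genes). At an unadjusted p under 0.05 there were 3 members and 1134 of 22180 genes (5.11%), and by exact rank sum tests 0 genes were called, with 4 members and 774 genes under 0.05 unadjusted. The differences were positive for 8 of 9 members with a median of 0.33, beside 0.00 over all genes. The members were read from the same arrays, so this count of signs is a description and no test. Without the basal arrays of animals 44 or higher, Hspd1 and Hspa8 were at -0.06 and -0.04, and Bag3 at 0.23.

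Stip1 had the smallest p of the members in this comparison, though not the largest difference. Its 9 palm oil basal livers ran between 6.77 and 7.30 with a median of 7.01, and the 7 control basal livers between 6.45 and 6.84 with a median of 6.64. Of the palm oil livers, 8 of 9 were above the highest control liver. The difference was 0.39 ± 0.11 (unadjusted p 0.000905, limma adjusted p 0.96), and it was 0.46 without and 0.27 with only the basal arrays of animals 44 or higher.

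Hsp90aa1 and Hsph1 had the other unadjusted p-values under 0.05 in limma. Hsp90aa1 differed by 0.42 ± 0.13 (unadjusted p 0.00198, limma adjusted p 0.96), with 6 of 9 palm oil basal livers above the highest control basal liver. Hsph1 differed by 0.46 ± 0.16 (unadjusted p 0.00705, limma adjusted p 0.96), with 5 of 9 above the highest control liver. For Hspb1 the difference was 0.59 ± 0.32 (limma unadjusted p 0.0744, adjusted p 0.975, and unadjusted p 0.00332 by the exact rank sum test), with 7 of 9 palm oil livers above the highest control liver. Stip1 and these 3 genes were singled out by unadjusted p-values, Hspb1 by the rank sum test alone, and none passed after adjustment.

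The other members were closer together in basal livers. Hspa1b differed by 0.33 with a 95% interval of -0.62 to 1.28, and Dnajb1 by 0.16 with an interval of -0.38 to 0.70, so that each interval reached well to both sides of 0. Hspa8 differed by 0.08 (-0.13 to 0.29), Hspd1 by 0.01 (-0.16 to 0.18) and Bag3 by -0.10 (-0.43 to 0.23).

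**Figure D3:**
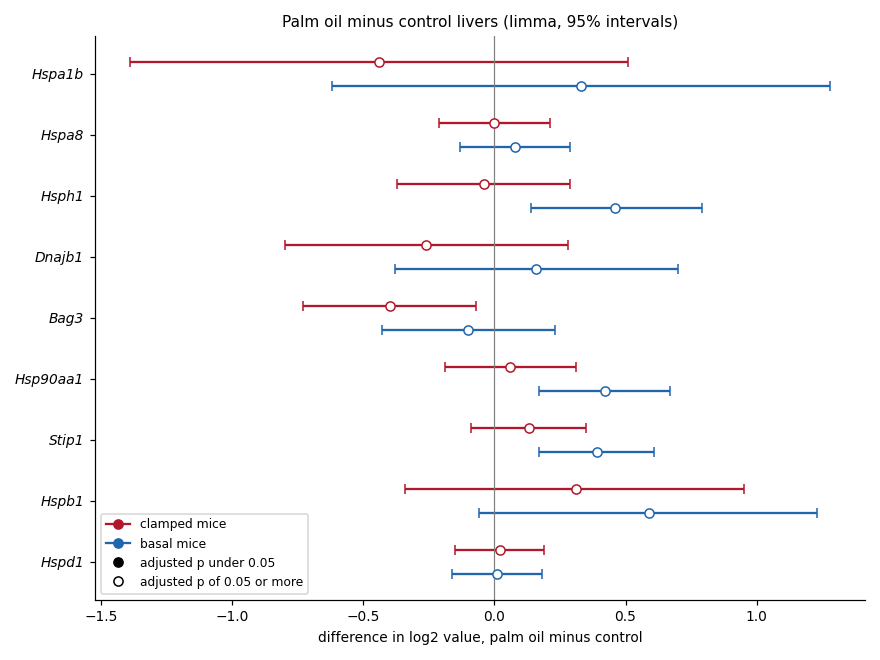
Palm oil minus control difference in log2 value (horizontal axis) for the 9 members, with 95% intervals from limma, in clamped mice above basal mice. All points are open, because no adjusted p was under 0.05, and the intervals of Hsph1, Hsp90aa1 and Stip1 in basal mice lie above 0.

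At the end of the clamp fewer members had a positive difference. In palm oil clamped against control clamped livers, 0 of 9 members were called in limma, as were 0% of all genes, with 1 member and 781 genes at an unadjusted p under 0.05. By exact rank sum tests, 0 genes were called, and 0 members and 723 genes were under 0.05 unadjusted. The differences were positive for 4 of 9 members. The member under 0.05 unadjusted was Bag3, at 6.48 to 7.45 in palm oil clamped and 6.56 to 7.69 in control clamped livers, with overlapping groups and a difference of -0.40 ± 0.16 (limma adjusted p 1). Hspa1b differed by -0.44 with an interval of -1.39 to 0.51, and Stip1 by 0.13 with an interval of -0.09 to 0.35.

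The interaction asked whether the clamped minus basal difference was unlike between palm oil and control mice. It was negative for 8 of 9 members, with a median of -0.30 beside -0.00 over all genes, which means a smaller difference in palm oil mice. The members share their arrays, so this count of signs is no test either. None passed: 0 of 9 members and 0% of all genes were called in limma, with 2 members and 773 genes at an unadjusted p under 0.05. Those 2 were Hsph1 (-0.50 ± 0.23, interval -0.97 to -0.04) and Hsp90aa1 (-0.36 ± 0.18, interval -0.72 to 0.00), each with a limma adjusted p of 1. For Hspa1b the interval ran from -2.11 to 0.57. The palm oil basal, control basal and clamped groups enter this value together, so that it is not a further comparison independent of those above.

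The basal livers split by animal number for several members. Hspa8 lay between 10.31 and 10.50 in the 7 basal arrays of animals 44 or higher and between 10.60 and 10.93 in the other 9 basal arrays, and Hspa1b between 3.15 and 4.23 in the 7 and between 4.41 and 6.00 in the 9. These 2 of 9 members lay wholly lower in the 7 arrays, as did 1.34% of all genes, while 0 members and 0.32% of all genes lay wholly higher there. Both sets held palm oil and control mice. Hsp90aa1 averaged 3.39 in the 7 arrays and 3.90 in the 9, and Hspd1 averaged 9.07 in the 7 and 9.36 in the 9, with slight overlap. Animal 43, a palm oil basal mouse, was close to the 7 arrays in Hspa8 (10.60) and Hspd1 (9.09).

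Bag3 did not share this pattern: it averaged 6.08 on both sides of the split in palm oil basal mice, and in control basal mice 6.43 from animal 44 on and 5.85 before. Hsph1 averaged 5.94 from animal 44 on and 6.16 before in palm oil basal mice, but 5.73 and 5.48 in control basal mice. For Stip1 and Dnajb1 the 7 arrays minus the other 9 gave -0.16 and -0.05. The narrower spread of values in the same 7 arrays is given above, and its part in these levels was not tested. Animal numbers of clamped mice (15 to 32) and basal mice (33 to 52) do not overlap, so that number and clamp cannot be told apart. All 16 clamped livers were above the 7 arrays in 5 of 9 members (Hspa1b, Hsph1, Hsp90aa1, Hspd1 and Hspa8), against 2.06% of all genes. Against the other 9 basal arrays, 14 of 16 clamped livers were above the highest for Hspa1b, 13 of 16 for Hspa8 and 12 of 16 for Hsph1, but 7 of 16 for Hsp90aa1 and for Hspd1.

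With the 9 basal arrays alone as the basal livers, Hspa1b, Hsph1 and Bag3 were still called in both arms. In control mice Hsp90aa1 and Stip1 joined them. With the 7 arrays alone as the basal livers, 6 members were called in palm oil mice and 7 in control mice, where 5.63% and 6.15% of all genes were called higher, and Hspd1 was among them at 0.42 (limma adjusted p 0.00526) and 0.35 (limma adjusted p 0.012).

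**Figure D4:**
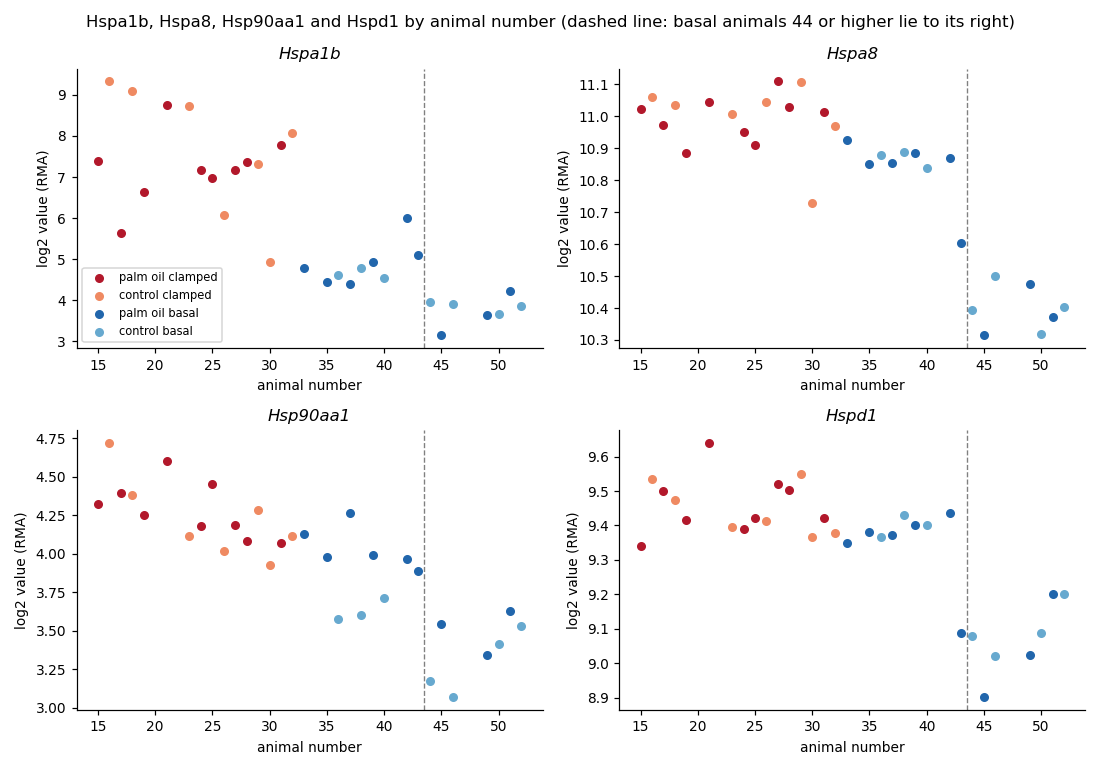
Log2 values (vertical axis) of Hspa1b, Hspa8, Hsp90aa1 and Hspd1 against the animal number in the labels (horizontal axis), with 1 point per liver coloured by group and a dashed line before animal 44. The 7 livers right of the line lie below all 16 clamped livers in all 4 genes, and the 9 basal livers left of it lie nearer to the clamped livers.

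Control clamped livers differed widely among themselves in Hspa1b, Dnajb1 and Hspb1, with SDs of 1.65, 0.93 and 1.27. For Hspa8 and Hspd1, clamped livers were closer together than basal ones. The SD of Hspa8 was 0.07 in palm oil clamped and 0.12 in control clamped livers, against 0.24 and 0.25 in the basal groups. The basal SDs span the split by animal number given above. In control basal livers Hspa8 ran from 10.32 to 10.50 from animal 44 on and from 10.84 to 10.89 before. In palm oil basal livers it ran from 10.31 to 10.47 and from 10.60 to 10.93. The extreme values often came from the same animals, and how often these were extreme over all genes was not counted. Palm oil clamped replicate 4 (animal 21) was the highest of its group in 8 of 9 members, all but Hspa8. Control clamped replicate 1 (animal 16) was the highest of its group in 6 of 9, and control clamped replicate 6 (animal 30) the lowest in 8 of 9, all but Bag3. Animal 16 read 9.33 for Hspa1b, 6.08 for Dnajb1 and 8.64 for Hspb1, while animal 30 under the same treatment read 4.92, 3.72 and 4.82.

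Dnajb1 and Hspb1 went together most closely. Animals 16, 18 and 21 were highest in both, at 6.08, 5.72 and 5.85 for Dnajb1 and at 8.64, 7.67 and 8.10 for Hspb1. Across the 16 clamped livers, as deviations from the group means, their correlation was 0.92, and it was 0.71 over the 13 livers without those 3. Over all 36 pairs of members the correlation in clamped livers ran from 0.13 to 0.92, with a median of 0.58, and without the 3 livers from -0.32 to 0.78, with a median of 0.32. In basal livers it ran from -0.66 for Hspd1 and Bag3 to 0.89 for Hspd1 and Hspa8. Values of an array share its RNA, labelling and scaling, so that these correlations are a description of the arrays.

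Without animals 16, 18 and 21, 6 members were called in each arm, where 3.24% of all genes were called higher in palm oil mice and 4.21% in control mice. Hspb1 in control mice was then at 0.58 (limma adjusted p 0.133). In palm oil mice Hspb1 (0.77, limma adjusted p 0.00834) and Dnajb1 (0.43, limma adjusted p 0.0483) were past the threshold and count among the 6. Their differences were smaller than with all arrays (0.92 and 0.62). The 3 livers left out were the highest in these 2 genes, so these 2 calls follow from the choice of livers and are no test. Stip1 and Hspa8 were then no longer called in palm oil mice, nor Hspa8 in control mice.

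**Figure D5:**
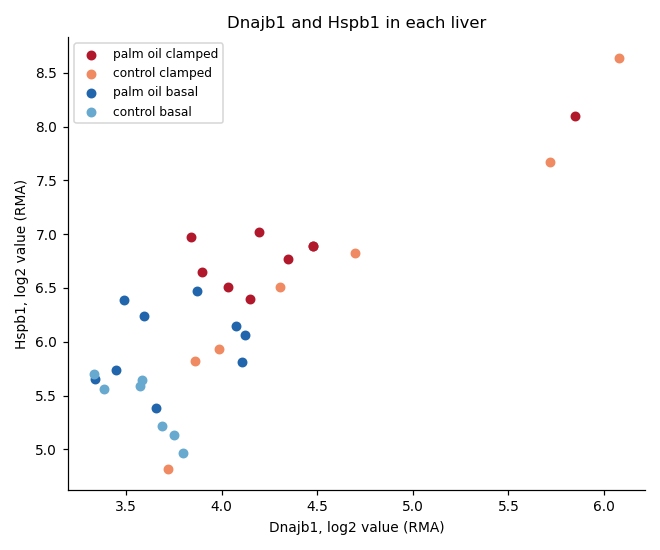
Log2 values of Hspb1 (vertical axis) against Dnajb1 (horizontal axis) in each of 32 livers, coloured by group. The 3 points at the upper right are the clamped livers of animals 16, 18 and 21, between 5.72 and 6.08 for Dnajb1, while basal livers reach 4.12.

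Chaperone genes outside the set were examined in 8 lists by role. Besides the 9 measured members the lists held 74 genes, the unmeasured Hsf1 among them, and 69 of these were measured. Clamped livers had 10 of them higher and 0 lower in palm oil mice (14.5%) and 14 higher and 0 lower in control mice (20.3%), against 3.76% and 4.66% of all genes called higher. The median difference of the 69 was 0.08 in palm oil mice and 0.11 in control mice. In limma, 0 of the 69 were called for palm oil against control in basal mice (5 at an unadjusted p under 0.05), 0 in clamped mice (2 unadjusted) and 0 for the interaction (1 unadjusted).

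Among the other HSP70 and HSP110 chaperones, 2 of 7 were higher in palm oil mice and 4 of 7 in control mice. Hspa2, an HSP70 best known from male germ cells, was higher by 1.03 ± 0.16 in palm oil mice (limma adjusted p 2.38e-05) and 0.75 ± 0.18 in control mice (limma adjusted p 0.00498). Hspa4l, a relative of HSP110, was higher by 0.64 ± 0.15 in palm oil mice (limma adjusted p 0.00521) and 0.78 ± 0.17 in control mice (limma adjusted p 0.00259).

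Among the other genes of the HSP90 list, 3 of 12 were higher in each arm. Chordc1, which encodes an HSP90 co-chaperone with CHORD domains, was higher by 0.91 ± 0.14 in palm oil mice (limma adjusted p 2.59e-05) and 1.10 ± 0.16 in control mice (limma adjusted p 1.04e-05). Fkbp5, a co-chaperone of the glucocorticoid receptor and itself a textbook glucocorticoid target, was higher by 1.04 ± 0.17 in palm oil mice (limma adjusted p 4.09e-05) and 1.13 ± 0.19 in control mice (limma adjusted p 8.24e-05). Ahsa1, which stimulates the HSP90 ATPase, was higher in control mice by 0.48 ± 0.10 (limma adjusted p 0.00227) and stood at 0.23 ± 0.09 in palm oil mice (limma adjusted p 0.151).

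Of the other cytosolic J-domain proteins, 2 of 10 were higher in palm oil mice and 3 of 10 in control mice. Dnajb5 was higher in both, by 0.51 ± 0.16 in palm oil mice (limma adjusted p 0.0353) and 0.60 ± 0.18 in control mice (limma adjusted p 0.0251). Dnajb2 and Dnajb4 were called in control mice alone, at 0.48 and 0.40, and stood at 0.15 and 0.28 in palm oil mice. Dnajb5 and Dnajb4 were dim, near the median of 1.9 over all genes. In palm oil and control mice, Dnajb5 averaged 1.87 and 1.82 in basal and 2.38 and 2.42 in clamped livers. Dnajb4 averaged 2.03 and 1.99 in basal and 2.31 and 2.39 in clamped livers. No interaction was called for any of these genes.

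The remaining lists had fewer calls. Hikeshi, the carrier that brings HSP70 into the nucleus, was the single other gene called of 8 exchange factors and regulators, at 0.42 ± 0.12 in palm oil mice (limma adjusted p 0.03) and 0.62 ± 0.14 in control mice (limma adjusted p 0.00282). Hspb8, the small heat shock protein that partners BAG3, was the single other gene called of 7, at 0.76 ± 0.13 in palm oil mice (limma adjusted p 0.000148) and 0.86 ± 0.15 in control mice (limma adjusted p 0.000162). Of 11 other mitochondrial chaperones and proteases, 1 was called in palm oil mice and 2 in control mice: Hspe1, the HSP60 cofactor that shares the promoter of Hspd1, at 0.35 ± 0.11 in palm oil mice (limma adjusted p 0.047) and 0.47 ± 0.13 in control mice (limma adjusted p 0.0129), and the unfoldase subunit Clpx, at 0.61 ± 0.16 in control mice (limma adjusted p 0.0142) and 0.41 ± 0.14 in palm oil mice (limma adjusted p 0.0765). Of the 8 subunits of TRiC, the chaperonin that folds actin and tubulin, 0 were called in either arm in limma, with 2 at an unadjusted p under 0.05 in each. Of 6 heat shock factors and regulators 0 were called, with 1 unadjusted in palm oil mice and 2 in control mice.

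Some genes followed Hspa1b across arrays more closely than most members did. With deviations from the group means over 32 arrays, the highest correlations with Hspa1b belonged to P4ha1 (0.74), which encodes a prolyl hydroxylase of collagen, Hspa1a (0.70), the autophagy gene Atg14 (0.70), the R-spondin receptor gene Lgr4 (0.69) and Ndrg1 (0.68). In clamped and in basal livers taken apart, P4ha1 stood at 0.76 and 0.79 and Lgr4 at 0.69 and 0.73. The other values were less even: 0.86 and -0.02 for Hspa1a, 0.83 and 0.37 for Atg14, and 0.78 and 0.41 for Ndrg1. P4ha1 was higher in clamped livers by 0.99 ± 0.18 in palm oil mice (limma adjusted p 0.000287) and 1.43 ± 0.21 in control mice (limma adjusted p 1.09e-05). Lgr4, by contrast, differed by 0.26 ± 0.13 in palm oil mice and 0.17 ± 0.15 in control mice and was not called. Among members, Hspb1 (0.66), Dnajb1 (0.65) and Hsph1 (0.62) were closest to Hspa1b over the 32 arrays, ranking 7, 11 and 21 among 22179 genes, and Bag3 (0.25) the furthest, ranking 2562. Bag3 stood at 0.56 in clamped and -0.33 in basal livers. In clamped livers without animals 16, 18 and 21, Hspb1, Dnajb1 and Hsph1 stood at 0.52, 0.33 and 0.61.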

How the data were processed

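Total liver RNA of 32 mice was hybridised to 1 array each, per the labels. The authors deposited log2 values, used here unchanged. The submitters' processing notes name RMA and Affymetrix Expression Console, version 1.3.0.187. RMA compresses low values, so that folds of dim genes are understated. Of 41345 probe sets, a platform annotation paired 23521 with 1 symbol and 1814 with several, and 16010 were unlisted and stay unnamed. Taking the probe set with the highest mean for each symbol left 22180 genes.

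Groups came from the sample titles. Limma 3.58.1 (lmFit, eBayes, R 4.3.3) fitted 1 mean per group on all 32 arrays, leaving 28 residual degrees of freedom. P-values were adjusted by Benjamini-Hochberg over all genes of each of 5 comparisons, with a threshold of 0.05 and 95% intervals. Named genes were the members, Hspa1a, up to 3 called genes of each role list by smallest p in control mice, and the 5 genes most like Hspa1b, without predicted models and small RNAs. The functions were tested on simulated data. Members and lists were chosen with earlier results of these data known. Alternatives covered probe sets, scaling, dim genes, the prior, weights, samples and tests. Those leaving out animals 16, 18 and 21 or keeping only basal animals 44 or higher were chosen after seeing the data.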

Additional observations from a re-analysis of the deposited data

Results flagged for a closer look

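In 3 of the 36 member and group combinations, a single liver lay far from the rest of its group, where chance gives about 1 in 20. The combinations share livers, and the Dnajb1 and Hspb1 values below came from the same liver, so this count is no test. Dnajb1 in palm oil clamped replicate 4 was 5.85, with the nearest liver of that group at 4.48. Hspb1 in the same liver was 8.10, with the nearest at 7.02. Hspa8 in control clamped replicate 6 was 10.73, with the nearest liver of that group at 10.97. No member passed the test of a different clamp response after palm oil and after water.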

How the results depend on the processing

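Hspa1b and Bag3 were called higher in clamped livers in both arms under all 16 alternatives and every left-out array. The 0 calls for palm oil and for the interaction held under all alternatives. In control mice the count of members called, 8, was 5 with the compared groups alone, without the basal arrays of animals 44 or higher, with that split as a term, and without arrays over 6 in acinar markers. In palm oil mice the count, 6, was 3 without the basal arrays of animals 44 or higher, with the split as a term and when the acinar level was a term, and 2 once arrays over 6 were left out. With the compared groups alone, 7 members were called in palm oil mice, of 1806 genes, against 5 in control mice, of 1320. By exact rank sum tests, 7 members were called in palm oil mice, of 1495 genes, and 6 in control mice, of 1120. With single arrays left out the counts ran between 4 and 7 in palm oil mice and between 6 and 8 in control mice. The cause of these shifts was not tested, beyond the fewer arrays in some fits. The replicate number as a replicate block kept 6 and 8 calls, of 1629 genes in palm oil mice and 1923 in control mice, with Hspb1 in palm oil mice called (adjusted p 0.0406) and Stip1 not (0.0551). Same-numbered arrays did not pair: 12 of 44 pairs correlated over 0.1 (range -0.36 to 0.36).

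Of 684 values of members under alternatives, 614 kept their direction and side of the threshold and 17 changed sign, all without a call. For palm oil in basal mice, Hspd1 was -0.01 with repeated quantile normalization, -0.06 without the arrays of animals 44 or higher, -0.06 with the split as a term and -0.05 with these basal arrays only. Hspa8 was -0.04, -0.03 and -0.02 under the last 3 settings, Bag3 0.23 without these arrays, and Hspa1b -0.18 with these basal arrays only. For the interaction, Hspa8 was 0.04, 0.03 and 0.02 under the same 3 settings, and Hspd1 -0.02 with array weights and -0.20 without arrays over 6. Without clamped animals 16, 18 and 21, palm oil in clamped mice gave 0.06 for Hsph1 and for Dnajb1, and the Hspb1 interaction was 0.20. With single arrays left out, Hspd1 ran from -0.02 to 0.05 for palm oil in basal mice, from -0.01 to 0.03 in clamped mice and from -0.04 to 0.04 for the interaction, Hsph1 from -0.14 to 0.07 for palm oil in clamped mice, and the Hspb1 interaction from -0.57 to 0.06.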
